A study of Mus musculus with 6 samples.

Results

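Opposite-strand (os) transcripts are named after the gene they face: Hopxos, for example, is transcribed from the strand opposite to Hopx. Genes were taken whose name ends in os, or in os and 1 digit, and whose name without that ending was also a gene name in the tables. They had to have an FPKM (fragments mapped to a transcript, divided by its length and by the size of the library) above 0 in at least 2 of 6 libraries. Of 46072 genes, 318 had such a name, and for 295 of these the rest of the name was a gene. Among the 295, 170 were above 0 in no library, 46 in 1 library and 79 in at least 2. With 1 gene left out, 78 os transcripts of 76 sense genes were described, selected on their measured FPKM, so that their presence above 0 is no result.

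RNA bound to EZH2 was sequenced after immunoprecipitation of the protein (RIP-seq) from left ventricles. The mice were male and aged 10 weeks. In the Sham group they had no angiotensin II, and in the AngII 4 h group and the AngII 24 h group an osmotic minipump delivered it at 1 mg/kg/min for that time. The labels call the Sham mice Untreated, whereas the protocols describe an infusion of saline. The strain label reads C57BL/6 for the 3 IgG libraries and for the Sham anti-EZH2 library, C57BL/7 for the AngII 4 h anti-EZH2 library and C57BL/8 for the AngII 24 h anti-EZH2 library. A group had 1 anti-EZH2 library and 1 library with normal IgG, each a mixture of 2 RIP products. No group was replicated, and the libraries of a group share their mice. Where 3 values follow each other for an antibody, their order is Sham, then 4 h, then 24 h of AngII, and values with IgG come before those with anti-EZH2.

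Antisense transcription is common in mammalian genomes. Many antisense transcripts start near the promoter of the facing gene and run away from it, whereas others cover its body or its end, and a few are known to regulate that gene in cis. EZH2 is the catalytic subunit of polycomb repressive complex 2 (PRC2), which methylates lysine residues of histone H3 and silences genes. PRC2 binds many RNAs, nascent transcripts among them, and antisense transcripts have been studied as RNAs that may bring it to, or keep it from, a locus. The ratio to IgG (anti-EZH2/IgG) of each os transcript was therefore set beside that of its sense gene.

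The name did not define 1 kind of gene. In the GENCODE M21 annotation (GRCm38, the assembly also called mm10), 59 of the 78 were antisense genes, 6 were protein-coding, 5 were lincRNAs and 5 were processed transcripts. The rest were a sense intronic transcript, a transcribed unitary pseudogene and a bidirectional promoter lncRNA, 1 of each. The 6 protein-coding members were Wdr83os, Cebpzos, Ccpg1os, Slc7a6os, Toporsos (now Smim27) and Chd3os (now Rnf227). On the opposite strand to the sense gene lay 77 members. The exception was Cep112os2, now named Cep112it, which the annotation places inside an intron of Cep112 on the same strand.

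The position of the members relative to the sense gene varied. In 29 pairs the 5′ ends overlapped, in 23 the os transcript lay inside the sense gene, and in 10 the genes pointed away from each other without overlap. In 8 pairs the 3′ ends overlapped, in 4 the genes pointed towards each other without overlap, and in 3 the sense gene lay inside the os gene. The nearest annotated starts of 35 pairs were within 500 nt of each other. Exons overlapped an exon of the sense gene in 50 pairs, and those of 25 members overlapped another gene. The libraries were made with a stranded kit, but the strand setting of the program that calculated FPKM is not given in the sources used here. Reads of an os transcript and of its sense gene therefore may not have been told apart where their exons overlap. For a member inside an intron, reads of unspliced sense RNA may likewise be counted for it. Cep112os2 is on the same strand as Cep112, so that no strand setting could tell such reads apart. In bulk tissue, fewer cells of a type and less RNA per cell cannot be told apart.

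Os transcripts were rare RNAs. The median of the mean FPKM over the 6 libraries was 0.236 for the 78 members and 1.39 for the 76 sense genes, and the members ranged from 0.0136 to 4.64. A mean FPKM of at least 1 was reached by 12 members and one of at least 0.5 by 21, while 22 were under 0.1. Among these 22 was Zeb2os (0.0982), listed at 0.245 in the AngII 4 h anti-EZH2 library. In a table of the whole series, which the authors also deposited, its value in that library was 10.0. Members above 0 numbered 43, 53 and 47 with IgG, and 55, 60 and 48 with anti-EZH2. Over all genes the numbers were 15280, 16564 and 15636 with IgG, and 16928, 17821 and 15127 with anti-EZH2. In all 6 libraries 18 members were above 0 (23.1%), against 62.9% of the 18553 genes above 0 in at least 2 libraries. Of 2226 annotated antisense genes, 534 (24.0%) were above 0 in at least 2 libraries, with a median of 0.224, as were 79 (26.8%) of the 295 os names. Of those 534, 126 (23.6%) were above 0 in all 6 libraries. Names ending in os, as or -as whose remaining part was a gene numbered 298, of which 82 were above 0 in at least 2 libraries.

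By position, the 29 members whose 5′ end overlapped that of the sense gene had a median FPKM of 0.279 beside 1.48 for the sense genes. The 23 members inside the sense gene had 0.163 beside 1.97, the 10 pointing away had 0.303 beside 1.14, and the 8 overlapping at the 3′ end had 0.453 beside 1.54. The sense gene had the higher median in each of these sets. In the 3 pairs with the sense gene inside the os gene, 2 os transcripts had the higher mean. Their median of 1.14 is the mean of St8sia3os, which rests on 1 library (6.41, interval 0 to 17.1), so no order is drawn from this set.

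The depth behind these values is low. From the steps between low FPKM values, a depth of about 4330000, 5260000 and 3820000 fragments was recovered for IgG, and of about 5680000, 7990000 and 4780000 for anti-EZH2. At an effective length of 1000 nt, 1 fragment was worth between 0.125 FPKM (AngII 4 h anti-EZH2) and 0.262 FPKM (AngII 24 h IgG). A value of 0 at that length allows up to 3 fragments, or between 0.375 and 0.785 FPKM in those libraries. For the 31 members with 1 annotated transcript, 96 of 127 values above 0 came out whole to within 0.1 fragments (75.6%), and 61 of these were of at most 3 fragments. The highest was 33 fragments, of Hopxos in the Sham IgG library. Fragments, and intervals drawn from them, cover counting error only and compare libraries, not conditions.

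The rule had a threshold, and members near it were uneven. The highest values just inside it, above 0 in 2 libraries, were those of St8sia3os, Sox6os and Hoxd3os1. St8sia3os was listed at 6.41 FPKM in the AngII 24 h anti-EZH2 library and at 0.423 in the AngII 4 h IgG library. Sox6os had 2.12 (IgG) and 0.805 (anti-EZH2) in Sham, which were 2 fragments and 1 fragment. Hoxd3os1 had 1.23 and 1.70 in the 4 h and 24 h IgG libraries. These values show that a member can pass on very few fragments. Just outside it were Rab26os, at 5.73 in the AngII 4 h IgG library, Hk1os, at 2.65 in the AngII 4 h anti-EZH2 library, and Plxna4os3, at 2.15 in the Sham anti-EZH2 library, each listed at 0 in the other libraries.

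Wdr83os had the highest mean FPKM (4.64). It encodes a small membrane protein of the endoplasmic reticulum that assists the insertion of multi-pass membrane proteins, and faces Wdr83, which encodes a scaffold of MAP kinase signalling. Its FPKM was 5.33 (authors' interval 2.09 to 8.59), 4.92 (2.13 to 7.72) and 1.32 (0 to 3.96) with IgG. With anti-EZH2 it was 6.29 (3.08 to 9.51), 6.57 (4.01 to 9.13) and 3.42 (0.351 to 6.71). Both AngII 24 h libraries were thus the lowest for their antibody, with intervals that overlapped the others. Wdr83 followed the same order by group in the IgG libraries, with 5.84, 4.90 and 2.11, and had 3.08, 4.80 and 0.975 with anti-EZH2. On the log2(FPKM + 0.5) scale, with each library centred on its median, Wdr83 was more than 2-fold below Sham at AngII 24 h with both antibodies (−1.47 with IgG and −1.16 with anti-EZH2). Wdr83os differed from Sham by −1.87 with IgG and −0.68 with anti-EZH2. The starts of this pair are 6 nt apart and their exons overlap by 539 nt.

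Among the 31 members with 1 transcript, Hopxos had the most fragments behind its values. Hopx encodes a homeodomain protein that does not bind DNA itself and acts with other factors in heart development and in cardiomyocytes. The Hopxos gene (chr5:77094532-77102303, plus strand) lies inside Hopx, with 412 nt of exon overlap. Its FPKM was 5.22 (3.48 to 6.97), 3.52 (2.22 to 4.96) and 3.95 (2.33 to 5.57) with IgG. With anti-EZH2 it was 2.89 (1.80 to 4.09), 2.58 (1.72 to 3.52) and 2.44 (1.29 to 3.73). The IgG value was the higher in each of the 3 groups. In Sham the ratio to IgG was 0.552, from 33 fragments with IgG and 23.9 with anti-EZH2. With the latter taken as 24, the exact Clopper-Pearson 95% interval was 0.314 to 0.967, which lies below 1. Divided by the median ratio of all genes above 1 FPKM in both libraries (0.842), it was 0.372 to 1.15 and included 1, and the authors' intervals of these libraries overlapped. At AngII 4 h, 27 fragments with IgG and 30 with anti-EZH2 gave a ratio of 0.731 (0.420 to 1.28). At AngII 24 h, 22 and 17 fragments gave 0.618 (0.308 to 1.22). The intervals of the AngII groups include 1, so that within them no difference between the libraries was detectable at this depth. Hopx itself was at 23.9, 30.5 and 25 FPKM with IgG and at 14.5, 34.1 and 21.4 with anti-EZH2, so the mean of Hopx was 7.25 times that of Hopxos.

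Some members were well above their sense gene. Atcayos had an FPKM of 2.52 (1.20 to 3.85), 6.84 (4.46 to 9.17) and 3.38 (1.75 to 5.02) with IgG, and 4.75 (2.85 to 6.63), 5.56 (3.71 to 7.11) and 3.65 (2.09 to 5.19) with anti-EZH2. Atcay, which encodes caytaxin, a protein of neurons, was at 0, 1.89 and 0.374 with IgG and at 0.05, 0.371 and 0.678 with anti-EZH2. Atcayos was thus the higher of the pair in every library. Its exons overlap those of Atcay by 432 nt and those of Nmrk2 by 270 nt, and fragments of Nmrk2 may be among those counted for it. With IgG, the intervals of the Sham and AngII 4 h libraries did not overlap, and with anti-EZH2 they did. The log2 differences from Sham at 4 h were 1.15 with IgG and −0.01 with anti-EZH2.

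Plet1os showed the same order. Plet1 encodes a surface protein of placental and epithelial progenitor cells, and was listed at 0 in 5 of the 6 libraries and at 0.337 in AngII 4 h anti-EZH2. Plet1os, whose gene spans Plet1, had 1.89, 2.17 and 4.70 FPKM with IgG and 0.859, 1.69 and 0.682 with anti-EZH2. The mean of Plet1os was 35.6 times that of Plet1. Over all pairs, 16 members had a higher mean FPKM than their sense gene and 4 (Atcayos, Plet1os, Prss23os and Brip1os) were above it in each of the 6 libraries. Exons of Plet1os overlap those of Plet1 by 261 nt, and exons of Prss23os those of Prss23 by 864 nt. Those of Brip1os overlap Med13 by 800 nt and Ints2 by 512 nt, so fragments of these genes may be among those counted. The sense gene had a median of 5.17 times the FPKM of the os transcript over the pairs in which it was above 0, and Hoxd3 and Vax2 were at 0 in all libraries.

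**Figure D1:**
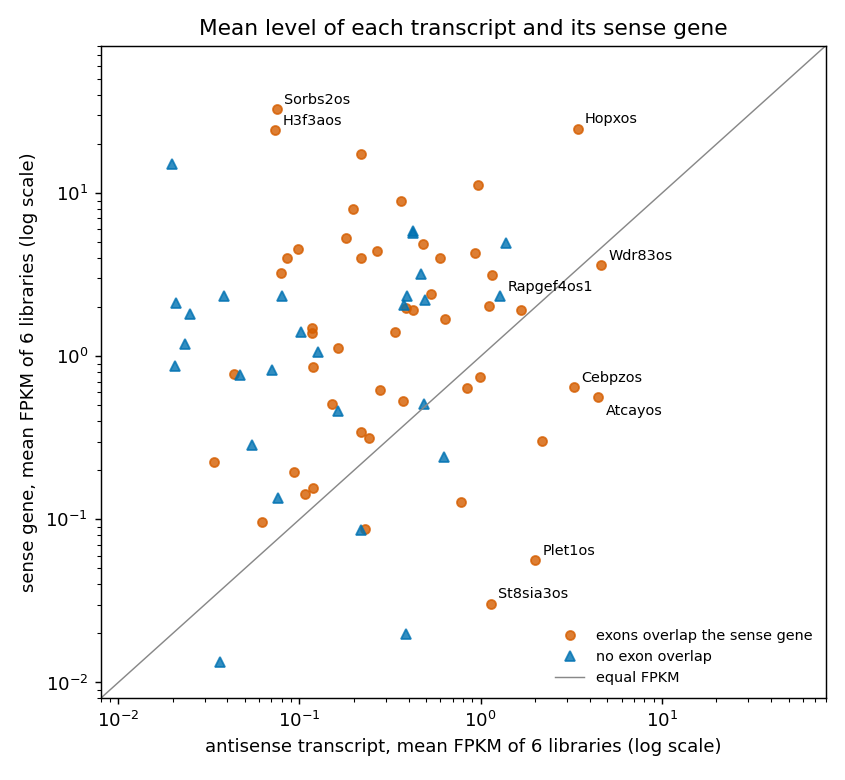
Mean FPKM over the 6 libraries of each os transcript (horizontal, log scale) against its sense gene (vertical, log scale) for the 76 pairs with a sense gene above 0; circles are pairs with overlapping exons and triangles those without, and the line marks equal FPKM. Most points lie above the line, Plet1os and St8sia3os lie far below it, and Sorbs2os and H3f3aos have a mean under 0.1 beside sense genes above 20.

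Other pairs had an abundant sense gene and almost no os transcript. Sorbs2 encodes an adapter protein of the Z-disc and intercalated disc, with a mean FPKM of 32.8. Sorbs2os, whose exons overlap those of Sorbs2 by 1051 nt (42.5% of its exonic length), was at 0 in 4 libraries and had 0.232 and 0.221 FPKM in the Sham and 4 h anti-EZH2 libraries. H3f3a, which encodes the histone variant H3.3, had a mean of 24.4 beside 0.0734 for H3f3aos, with 160 nt of exon overlap. In these pairs, the FPKM given to the os transcript remained under 0.3 in every library.

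Cebpzos and Cebpz overlap at their 3′ ends by 171 nt of exon. Cebpzos encodes a small mitochondrial protein, and Cebpz a nucleolar protein needed for ribosome assembly. Cebpzos had an FPKM of 2.31 (0.384 to 4.22), 4.76 (2.01 to 7.41) and 4.59 (1.74 to 7.43) with IgG. With anti-EZH2 it had 1.32 (0 to 2.67), 6.27 (2.91 to 7.94) and 0.523 (0 to 2.29). The AngII 4 h library was the highest with either antibody, while the AngII 24 h libraries differed most between the antibodies, with intervals that overlapped. In the table of the whole series the order with IgG was another, with 2.01 at AngII 4 h and 3.19 at AngII 24 h. Cebpz stayed between 0.418 and 1.08 in the 6 libraries.

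**Figure D2:**
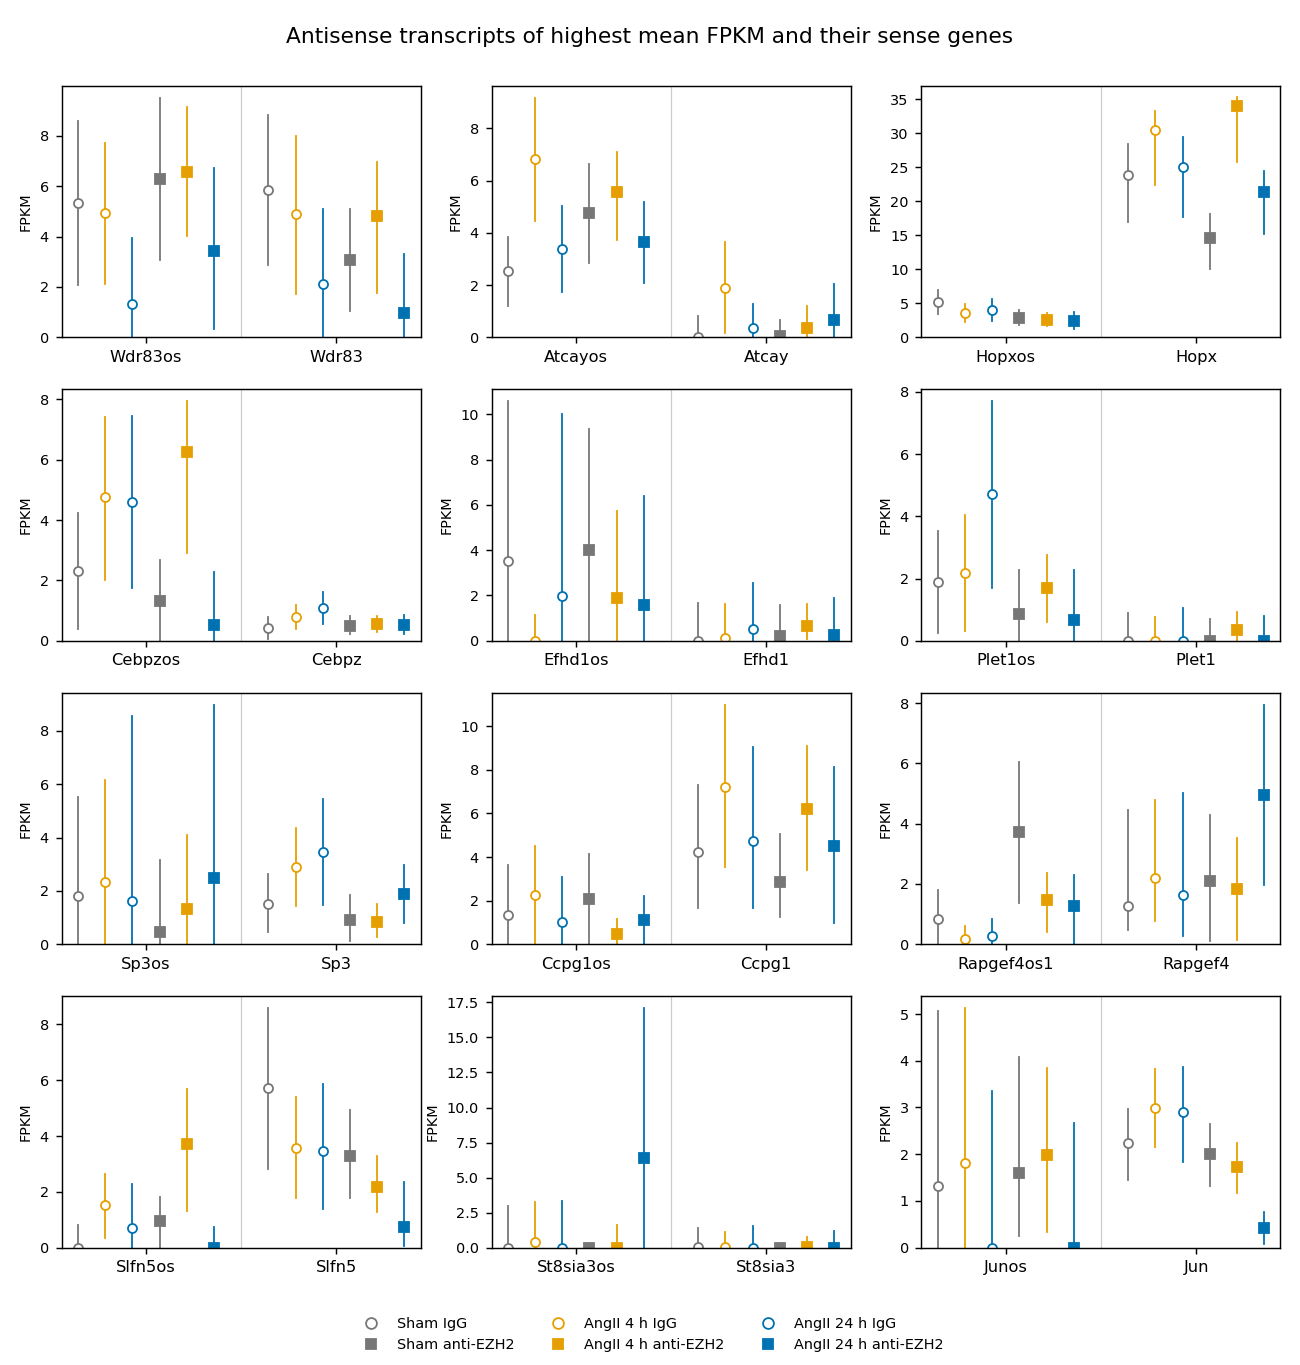
FPKM in each of the 6 libraries of the 12 os transcripts with the highest mean and of their sense genes; circles are IgG, squares anti-EZH2, colours the groups, and lines the authors' intervals of a value. Wdr83os and Wdr83 have their lowest values at AngII 24 h, Rapgef4os1 is higher with anti-EZH2 in each group, and Junos is at 0 in both AngII 24 h libraries.

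To ask which os transcripts were recovered more with anti-EZH2, the criterion of an anti-EZH2 FPKM above 1, an IgG FPKM above 0 and a ratio to IgG above 2 was applied within each group. It was passed by 3 of 10 eligible members in Sham (Rapgef4os1, Slc7a6os and Cep112os2), while 17.4% of the 7238 eligible genes passed. After 4 h of AngII, 3 of 11 passed (Rapgef4os1, Slfn5os and Rab10os) against 14.8% of 8038 genes. After 24 h, 2 of 9 passed (Wdr83os and Rapgef4os1) against 12.1% of 6879 genes. Of the eligible annotated antisense genes, the class of most members, 31.9% of 69, 31.6% of 79 and 27.7% of 65 passed with anti-EZH2, so the members' shares (30%, 27.3% and 22.2%) were not above those of their class. With the antibodies exchanged, 4 of 12 members passed in Sham (Plet1os, Sp3os, Lppos and Sox6os), 4 of 13 after 4 h (Ccpg1os, Toporsos, Prss23os and Prox1os) and 6 of 15 after 24 h (Cebpzos, Plet1os, Rab10os, Toporsos, Arhgap20os and Kcnd3os). Over all genes that exchanged criterion was passed by 25.6%, 16.2% and 39.2% in the same order, and by 39.0%, 21.4% and 41.0% of the eligible annotated antisense genes. Under these settings more members passed with IgG than with anti-EZH2 in each group, but this order depended on the settings. In Sham, 3 members passed with anti-EZH2 and 1 with IgG without members with overlapping exons, 3 and 0 with a ratio above 4, and 4 and 2 with ratios divided by the median ratio. After 4 h, 8 and 4 passed with a minimum of 0.5 FPKM, and 2 and 1 in the table of the whole series. After 24 h, 1 and 0 passed without overlapping exons. Over the members, FPKM in the separate tables was a median of 1.91 times that in the table of the whole series. This factor differed between libraries: Hopxos had 3.52 and 0.961 in AngII 4 h IgG, and 2.44 and 2.07 in AngII 24 h anti-EZH2. In the latter library some members were higher in the table of the whole series, such as St8sia3os (6.41 and 8.56). With the minimum for that table divided by 1.91 in every library, 3, 3 and 6 members passed with anti-EZH2 and 1, 3 and 5 with IgG. This minimum is lenient for AngII 24 h anti-EZH2, where the values of Hopxos lay close together, and so for the count of 6. These counts rest on few members and 1 library for each antibody, and no test was possible. Requiring that the authors' intervals also lie apart left 1 (Cep112os2), 0 and 0 members with anti-EZH2 and 0, 1 (Toporsos) and 0 with IgG. With values of 0 and under 1 FPKM included, the intervals lay apart in 6 cases: Cep112os2 in Sham and at 4 h, Toporsos at 4 h, and Unc45bos, Slc7a6os and Tomm6os at 24 h, the last 3 listed at 0 with anti-EZH2. The interval of Slc7a6os at that 0 has no width (0 to 0), although a value of 0 allows some fragments, so its case shows no separation. Intervals lying apart were not counted over all genes here, so these numbers have no background share beside them. In the table of the whole series the order of Tomm6os at 24 h was the reverse, with 1.38 with IgG and 5.17 with anti-EZH2 (ratio 3.76).

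Rapgef4os1 passed the anti-EZH2 criterion in all 3 groups. Rapgef4 encodes EPAC2, an exchange factor for Rap GTPases that is activated by cyclic AMP. Rapgef4os1 (chr2:72097603-72148796, minus strand) lies within Rapgef4 without exon overlap, but unspliced reads of Rapgef4 may be counted for it, which was not tested. Its FPKM was 0.824 (0 to 1.81), 0.179 (0 to 0.596) and 0.258 (0 to 0.821) with IgG, and 3.72 (1.37 to 6.05), 1.46 (0.393 to 2.36) and 1.28 (0 to 2.29) with anti-EZH2. The ratios to IgG were 4.51, 8.13 and 4.95. For Rapgef4 they were 1.62, 0.843 and 3.06, from 1.28, 2.19 and 1.62 FPKM with IgG and 2.08, 1.84 and 4.96 with anti-EZH2. The os transcript thus had the higher ratio of the pair in each group. Its transcript of 638 nt corresponds to 1.55, 0.410 and 0.429 fragments with IgG and 9.18, 5.07 and 2.66 with anti-EZH2. The IgG values of the AngII groups are under 1 fragment, so that the size of those ratios rests on a share of a fragment. In the deposited table of the whole series, Rapgef4os1 is listed at 0 in all 6 libraries.

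Cep112os2 and Cep112 had opposite ratios. Cep112 encodes a centrosomal protein. The FPKM of Cep112os2 was 0.175 (0 to 0.384), 0.206 (0.0395 to 0.356) and 0.142 (0 to 0.327) with IgG. With anti-EZH2 it was 1.07 (0.692 to 1.42), 0.783 (0.520 to 1.07) and 0.589 (0.304 to 0.869). The intervals of the antibodies did not overlap in Sham or at AngII 4 h and overlapped at AngII 24 h. Its transcript of 4813 nt corresponds to 3.5, 5 and 2.5 fragments with IgG and 28, 28.8 and 13 with anti-EZH2, and its ratios to IgG were 6.11, 3.80 and 4.15 (9.85, 3.98 and 11.3 in the table of the whole series). Cep112 had 7.04, 2.26 and 1.92 FPKM with IgG and 1.03, 0.676 and 0.439 with anti-EZH2, or ratios of 0.146, 0.299 and 0.229. The intronic transcript was thus higher with anti-EZH2 in 3 of 3 groups and the surrounding gene was lower in 3 of 3. Reads of unspliced Cep112 RNA cannot be told from those of Cep112os2, and their share was not tested. The intervals of Cep112, however, overlapped between the antibodies in each group (in Sham 0.834 to 14.8 with IgG and 0.0883 to 3.79 with anti-EZH2), and limma did not call it (log2 difference −1.44). Only the Sham value exceeded 1 FPKM, and Cep112os2 had a mean of 0.495, under the minimum of 0.5 for the test over the groups.

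The other members that passed with anti-EZH2 did so in 1 group each. Slfn5os, facing a gene of the Schlafen family, had 1.54 FPKM with IgG and 3.71 with anti-EZH2 at AngII 4 h (ratio 2.41). Slc7a6os, which encodes a factor for the nuclear import of RNA polymerase II, had 0.349 and 1.59 in Sham (4.56). At AngII 4 h Slc7a6os had 0.144 and 0.473 (3.29), both under 1 FPKM. At AngII 24 h it was higher with IgG, at 1.19 against 0 with anti-EZH2. Rab10os, which overlaps the end of the gene of a vesicle transport GTPase, had 0.312 and 1.64 at 4 h (5.27) and 2.18 and 0.384 at 24 h of AngII (0.176). The ratio of Rab10os therefore lay on opposite sides of 1 in these groups, and the difference was not tested. In the table of the whole series the ratios were 6.32 at 4 h, from an anti-EZH2 value of 0.529 that did not reach 1 FPKM, and 0.284 at 24 h. Rab10 had ratios of 0.857 and 0.381 in these groups.

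Among the members that passed with IgG, Toporsos did so in both AngII groups. It encodes a small membrane protein and faces Topors, which encodes a ubiquitin and SUMO ligase. Toporsos had 0.814, 2.01 and 1.55 FPKM with IgG and 0, 0.441 and 0.245 with anti-EZH2. At AngII 4 h the intervals of the antibodies did not overlap (0.902 to 3.07 and 0 to 0.832). Topors had ratios to IgG of 2.85, 1.38 and 0.479, so that in Sham and at AngII 4 h the sense gene was the higher with anti-EZH2. Exons of Toporsos overlap those of Topors by 113 nt and of Ndufb6 by 257 nt. Arhgap20os was at 1.16, 0.884 and 1.31 with IgG and at 0, 0 and 0.462 with anti-EZH2, and its sense gene Arhgap20 also had ratios under 1 (0.238, 0.333 and 0.533).

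Several members passed with IgG at 1 time and had another order elsewhere. Sp3os, facing the gene of a transcription factor that binds GC boxes, had ratios of 0.253, 0.563 and 1.54. Ccpg1os, facing the gene of a receptor for autophagy of the endoplasmic reticulum, had 1.52, 0.207 and 1.06. Prss23os, facing the gene of a serine protease, had 0.569, 0.151 and 1.60. These members have several transcripts, or values of a few fragments, and the authors' intervals of each overlapped between the antibodies in all 3 groups. Lppos, facing the gene of a LIM domain protein of focal adhesions, had 10 and 6 fragments in Sham, a ratio of 0.458 (exact interval 0.137 to 1.39), 2 and 8 at AngII 4 h (2.63, 0.525 to 25.4), and 9 and 6 at AngII 24 h (0.533, 0.156 to 1.68). Prox1os, facing a homeobox gene, had 5 and 2 fragments at AngII 4 h, a ratio of 0.263 (0.0251 to 1.61). All of these intervals of Lppos and Prox1os include 1.

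**Figure D3:**
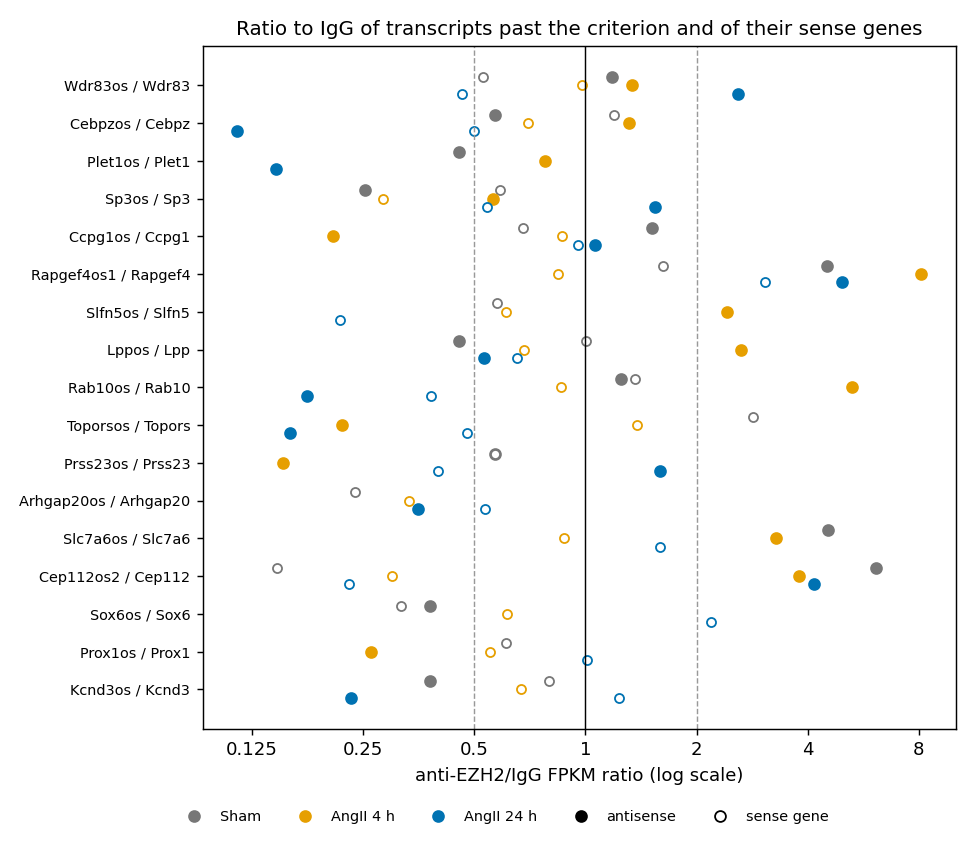
Ratio to IgG (anti-EZH2/IgG FPKM, log scale) of the 17 os transcripts past the criterion with either antibody in any group (filled) and of their sense genes (open), by group; a point is missing where a library was at 0, and dashed lines mark 0.5 and 2. Rapgef4os1 and Cep112os2 lie above 2 in each group, while Cep112 lies below 0.5 in each.

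Over the members above 0 in both libraries of a group, the median ratio to IgG was 0.911 (34 members), 0.987 (42) and 0.798 (36). For the sense genes it was 0.717, 0.857 and 0.834, and for all such genes 0.835, 0.938 and 0.686. Members with a ratio above 1 numbered 17 of 34, 20 of 42 and 15 of 36, whereas 41.0%, 44.9% and 30.1% of all genes were above 1. With an FPKM above 1 in both libraries, 7, 9 and 6 members remained, and their medians were 1.18, 1.02 and 1.07. At that minimum the medians were 0.842, 0.936 and 0.686 for all genes and 0.677, 0.903 and 0.902 for sense genes. For annotated antisense genes, the class of most members, they were also above 1 (1.04, 1.07 and 1.02). The os transcript and its sense gene lay on the same side of 1 in 16 of 28, 17 of 36 and 20 of 31 pairs. Across pairs, Pearson's r of the log2 ratios was 0.05, −0.11 and 0.32, and Spearman's rank correlation was 0.10, −0.08 and 0.33. These describe pairs of the same libraries, which are no independent replicates. In the deposited table of the whole series, the median ratios of the os transcripts lay above 1 (1.04, 1.15 and 1.24), so the side of 1 depended on the table used as well as on the FPKM minimum. Of 97 single ratios above 0 in both tables, 15 were below 1 in the separate tables and above 1 in that of the whole series, among them Myadml2os (0.598 and 1.04), Uckl1os (0.405 and 1.24) and Proscos (0.747 and 1.08) at AngII 24 h.

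With the 3 groups as repeats of the antibody contrast, limma was fitted on log2(FPKM + 0.5) with the group as a block, on which scale the change of a low gene is understated. Of 11471 genes with a mean FPKM of at least 0.5, 0 had an adjusted p under 0.05 (0% higher with anti-EZH2 and 0% higher with IgG), and 728 (6.35%) had an unadjusted p under 0.05. Of the 78 members, 21 reached that mean, 0 were called and 3 had an unadjusted p under 0.05. Rapgef4os1 was higher with anti-EZH2 in 3 of 3 groups, with a log2 difference of 1.67 (95% interval 0.91 to 2.42). By limma with Benjamini-Hochberg adjustment its adjusted p was 0.674, and it lay between 0.627 and 0.871 over the other settings. Toporsos and Arhgap20os were higher with IgG in 3 of 3 groups, with log2 differences of −1.23 (−2.09 to −0.37) and −1.18 (−2.31 to −0.05). The adjusted p of each by limma was 0.776, and between 0.708 and 0.871 over the other settings. These 3 differences did not pass the test over all genes, and Arhgap20os and Toporsos had intervals that included 0 without the Sham pair or without the AngII 4 h pair of libraries. Under the other settings limma called 0 to 2 genes and 0 members, with 1 to 7 members at an unadjusted p under 0.05. The median log2 difference of the 21 members was −0.14, and that of all genes tested −0.06.

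AngII was compared with Sham by asking for a difference of more than 2-fold in the same direction with both antibodies, on the same centred scale. This is no test, since the antibody libraries of a group share mice. The comparisons at 4 h and 24 h also share the Sham libraries. At AngII 4 h, 1 of the 21 members was higher (Slfn5os) while 2.18% of the 11471 genes were, and 2 were lower (Efhd1os and Rapgef4os1) while 2.66% of genes were. At AngII 24 h, 0 members were higher and 1 was lower (Junos), against 1.94% and 2.72% of genes. Of 171 annotated antisense genes tested, 5.26% were higher and 7.02% lower at 4 h, and 1.17% and 5.85% at 24 h. The members' shares (4.76% and 9.52%, then 0% and 4.76%) were thus nearer to those of their class. In the table of the whole series 1 member passed at 4 h and 0 at 24 h, and without centring 1 passed at 4 h. Before centring, the library medians on the log2 scale differed from their mean by between −0.24 (AngII 24 h anti-EZH2) and 0.18 (AngII 24 h IgG).

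The exons of Junos overlap those of Jun by 232 nt and those of n-R5s189, an rRNA gene on the same strand as Junos, by 54 nt. Junos faces Jun, an immediate early gene and component of the AP-1 transcription factor. It had an FPKM of 1.31 (0 to 5.07) and 1.80 (0 to 5.13) with IgG and 1.61 (0.240 to 4.08) and 1.98 (0.343 to 3.85) with anti-EZH2 in Sham and after 4 h. At AngII 24 h it was listed at 0 with both antibodies, with intervals up to 3.35 and 2.68. The log2 difference from Sham was −2.05 with IgG and −1.96 with anti-EZH2, and from AngII 4 h −2.26 and −1.98. Jun had 2.24, 2.99 and 2.89 with IgG and 2.00, 1.72 and 0.420 with anti-EZH2, so that its IgG library at AngII 24 h was not low. The intervals of Junos overlap between all groups, and its level at AngII 24 h was not distinguishable from that of Sham at this depth.

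Slfn5os was listed at 0 (0 to 0.805), 1.54 (0.331 to 2.65) and 0.705 (0 to 2.28) with IgG and at 0.943 (0 to 1.83), 3.71 (1.31 to 5.67) and 0 (0 to 0.728) with anti-EZH2. AngII 4 h was its highest group with either antibody. Slfn5 did not have that order, with 5.73, 3.58 and 3.45 with IgG and 3.29, 2.19 and 0.745 with anti-EZH2. The exons of Slfn5os overlap those of Slfn5 by 559 nt and those of Unc45b by 151 nt, and Unc45b, a chaperone of muscle myosin, was between 8.39 and 15.8 FPKM. Efhd1os, facing the gene of a mitochondrial calcium-binding protein, had 3.52, 0 and 2.00 with IgG and 4.01, 1.91 and 1.59 with anti-EZH2. These values of a 332 nt transcript are 2.10, 0 and 1.05 fragments with IgG and 3.14, 2.10 and 1.05 with anti-EZH2, too few to show a difference. Rapgef4os1 differed from Sham by −1.10 with IgG and −1.32 with anti-EZH2 at AngII 4 h, and by −0.99 and −1.13 at AngII 24 h. Its IgG values here are 1.55, 0.410 and 0.429 fragments with overlapping intervals, too few to show a difference, and it is at 0 throughout the table of the whole series.

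The remaining members of high mean FPKM changed order between the antibodies or stayed low. Unc45bos had 0.209, 1.55 and 1.66 with IgG and 0.794, 1.59 and 0 with anti-EZH2, beside Unc45b, whose exons it overlaps by 255 nt. At AngII 24 h its intervals lay apart (0.602 to 2.61 with IgG and 0 to 0.320 with anti-EZH2), from 7 fragments and 0. Myadml2os had 0.549, 0.452 and 1.25 with IgG and 0, 0.595 and 0.745 with anti-EZH2, while Myadml2 had 0.859, 4.24 and 2.16 with IgG and 3.25, 8.26 and 5.44 with anti-EZH2. Myadml2 was thus higher with anti-EZH2 in 3 of 3 groups (log2 difference 1.36 by limma, not called) and more than 2-fold above Sham at AngII 4 h with both antibodies, and its os transcript had neither pattern. Proscos had between 0 and 0.920 and Uckl1os between 0.127 and 0.854, beside sense genes of between 1.42 and 3.21 and between 1.89 and 6.35. Sox6os, facing the gene of a transcription factor, and Kcnd3os, facing that of a potassium channel, had at most 2.12 and 1.02.

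The tissue and the treatment were read from lists of marker genes. The 8 cardiomyocyte markers were above 0 in all libraries, led by Myl2, with a summed FPKM of 7020, 9599 and 8576 with IgG and 5418, 8566 and 5705 with anti-EZH2. The summed FPKM over the 6 libraries lay between 23.2 and 39.5 for 5 endothelial markers, led by Egfl7, between 29.9 and 53.1 for 5 fibroblast markers, led by Dcn, and between 13.8 and 26.1 for 5 mural markers, led by Rgs5. It lay between 16.7 and 32.1 for 5 leukocyte markers, led by Lyz2, between 414 and 1020 for 4 erythroid markers, led by Hbb-bs, and between 0.382 and 4.32 for 4 neuronal and glial markers, led by Snap25. Of 4 adipocyte markers, Adipoq and Cidec were above 0 in the Sham anti-EZH2 library (summed 0.754) and the list was at 0 elsewhere. Atrial markers differed between the groups. Of 3, Sln was at 0 in all libraries, and the sum, led by Myl7, was 23.8, 1.05 and 0.552 with IgG and 18.8, 0.878 and 0 with anti-EZH2. The Sham libraries therefore held atrial transcripts that the AngII libraries held at lower levels, and the part of this in the differences of os transcripts from Sham was not tested. Between AngII 24 h and AngII 4 h, without the Sham libraries, 1 of the 21 members (Junos, lower) was past 2-fold with both antibodies, against 3.41% of genes.

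Among the messengers of PRC2, that of Ezh2 was at 1.67, 1.05 and 2.06 FPKM with IgG and at 0.266, 1.19 and 0.659 with anti-EZH2. The 11 genes of the complex summed to between 19.7 and 31.2 in the 6 libraries, led by Rbbp7, and 10 were above 0 in all. Of 11 genes known to respond to AngII or load, led by Ankrd1, 8 were above 0 in all libraries, with sums of 166, 184 and 171 with IgG and 123, 179 and 106 with anti-EZH2. Nppa, which encodes atrial natriuretic peptide, was at 20.2, 10.6 and 5.14 with IgG and 10.8, 10.2 and 5.36 with anti-EZH2. It was below Sham with both antibodies at both times. It is abundant in atria, the atrial markers were also highest in the Sham libraries (23.8 with IgG and 18.8 with anti-EZH2), and their part in this was not tested. In FPKM without the centring used above, 4 of the 11 genes were above Sham at 4 h with both antibodies (Acta1, Myh7, Ankrd1 and Junb) and 3 were below. The rise of Ankrd1 was small, from 52.9 to 55.5 with IgG and from 42.1 to 47.8 with anti-EZH2, and depends on this scale. Acta1, for skeletal actin, had 38.1, 54.4 and 35.2 with IgG and 24.3, 54.8 and 13.6 with anti-EZH2. At 24 h, 2 were above (Myh7 and Ankrd1) and 3 below (Nppa, Nppb and Acta1), so the list did not move in 1 direction.

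The start regions of the 4 members with the highest mean FPKM are shown because their position relative to the sense gene differs: Wdr83os shares its window with the start of Wdr83, whereas Atcayos, Hopxos and Cebpzos start away from that of their sense gene. They were taken from RefSeq (GRCm38.p6), as 250 bases before and 50 from each start, on the plus strand. The capitals mark matches on either strand to the letters TATAAA, to the letters CCAAT or to the letters GGGCGG. The windows are chr8:85080713-85081012 for Wdr83os, chr10:81194441-81194740 for Atcayos, chr5:77098580-77098879 for Hopxos and chr17:78916249-78916548 for Cebpzos. The RefSeq start of Hopxos (77098830) lies downstream of the start in GENCODE (77094532). So do those of Wdr83os (85080963 against 85080740) and Atcayos (81194691 against 81194609). Distances between starts were taken from GENCODE.
Wdr83os: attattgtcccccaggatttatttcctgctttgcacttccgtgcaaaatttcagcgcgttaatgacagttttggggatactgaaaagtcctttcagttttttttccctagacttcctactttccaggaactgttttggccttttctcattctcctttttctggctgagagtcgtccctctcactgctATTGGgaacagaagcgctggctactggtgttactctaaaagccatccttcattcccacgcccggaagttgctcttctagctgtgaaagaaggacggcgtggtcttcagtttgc
Atcayos: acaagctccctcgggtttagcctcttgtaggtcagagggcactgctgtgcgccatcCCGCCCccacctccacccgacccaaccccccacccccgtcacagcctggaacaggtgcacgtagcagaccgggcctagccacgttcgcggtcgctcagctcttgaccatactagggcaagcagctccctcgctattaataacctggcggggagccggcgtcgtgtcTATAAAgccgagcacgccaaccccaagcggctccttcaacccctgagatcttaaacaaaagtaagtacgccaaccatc
Hopxos: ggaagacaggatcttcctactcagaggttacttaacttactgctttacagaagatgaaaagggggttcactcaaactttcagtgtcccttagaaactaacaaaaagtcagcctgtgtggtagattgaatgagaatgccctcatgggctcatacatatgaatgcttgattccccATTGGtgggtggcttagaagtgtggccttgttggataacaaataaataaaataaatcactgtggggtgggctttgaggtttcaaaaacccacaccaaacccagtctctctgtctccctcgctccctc
Cebpzos: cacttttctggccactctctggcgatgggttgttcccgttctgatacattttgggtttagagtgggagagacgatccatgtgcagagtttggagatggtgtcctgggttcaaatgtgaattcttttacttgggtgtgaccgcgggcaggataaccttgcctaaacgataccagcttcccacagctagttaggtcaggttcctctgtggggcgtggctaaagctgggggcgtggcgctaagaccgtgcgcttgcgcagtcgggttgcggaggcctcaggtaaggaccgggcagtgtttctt

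The window of Atcayos held TATAAA and also GGGCGG, those of Wdr83os and Hopxos held CCAAT, and that of Cebpzos held none of these letters. Of 32851 promoters in the table, 13.6% held the letters TATAAA on either strand, 37.4% held the letters CCAAT and 35.7% held the letters GGGCGG, against 5, 20 and 20 of the 47 members in it. The windows had 9, 20, 1 and 15 CpG dinucleotides in the order printed, against a median of 7 over all promoters. The windows of Wdr83os and Wdr83 share 284 bases. Among these members, the 24 whose start lay within 500 nt of that of the sense gene had a median of 16.5 CpG (2 to 54), and the other 23 had 8 (1 to 39). The sets overlap in range, and no test was made.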

How the data were processed

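RIP-seq was analysed in 6 libraries, 3 groups with 2 antibodies each, grouped by the labels. Alignment was to mm10 by TopHat2, and the authors deposited FPKM, 1 table for each library with an interval for each value, and 1 table of the whole series. The program behind the FPKM is not given in the sources used here. The library tables were joined by Ensembl identifier, since 27 names differed in the Sham IgG table, and 45137 of 46072 genes were matched to GENCODE M21. For 60 genes on several rows the FPKM was summed. The members and lists were chosen with earlier results of these data known.

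Ratios were taken from the FPKM without a pseudocount. Differences used log2(FPKM + 0.5), centred on the median of each library, for genes with a mean FPKM of at least 0.5. limma 3.58.1 (R 4.3.3) was fitted with the group as block and a trended prior, with Benjamini-Hochberg adjustment over all genes tested. Depth, which differed between libraries by up to a factor of about 2, was recovered from FPKM steps, and fragments from members with 1 transcript, assuming fragments of 200 nt (SD 80 nt, shortest 34 nt). Values within 0.1 of a whole number were called whole (20% by chance). Procedures were tested on simulated data. Other tools were Python (3.11.15) with the packages numpy (2.4.6), pandas (2.3.3), scipy (1.17.1) and, for figures, matplotlib (3.10.9).

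Named were the 25 members with the highest mean FPKM, those past a criterion or over 2-fold from Sham, up to 3 on each side of the rule's threshold, their sense genes, and the lists of cell type markers, PRC2 and AngII genes. Sorbs2os, H3f3aos, Brip1os, Tomm6os, Chd3os, Zeb2os and Vax2 were named after their values were seen, as were the genes overlapped by a member. Alternatives were set for the pseudocount, filters, scaling, ratio, intervals, overlapping exons, libraries left out and the form of the table. AngII 24 h against AngII 4 h, the nearest whole fragments of Hopxos in Sham, a scaled FPKM minimum in the series table and the ratios of all members there were added after seeing the data.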

Additional observations from a re-analysis of the deposited data

Results flagged for a closer look

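Rab10os stood out because it passed the criterion with anti-EZH2 after 4 h of AngII and with IgG after 24 h. Its ratio to IgG was 5.27 in the former group and 0.176 in the latter, and the authors' intervals of the antibodies overlapped in both. In the series table the ratios were 6.32 and 0.284, and the former group did not pass since its anti-EZH2 value of 0.529 was under the minimum of 1 FPKM. The difference between the groups was not tested, since each ratio comes from 1 library for each antibody.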

How the results depend on the processing

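Over all alternatives 56 of 134 values moved, and 5 median ratios crossed from below 1 to above it in the series table, 3 of them also with an FPKM above 1. The 3 counts of members past the anti-EZH2 criterion (3, 3 and 2) became 7, 9 and 5 without an FPKM minimum and 1, 0 and 0 where the intervals had to lie apart. With a minimum of 0.5 FPKM they were 8 at 4 h and 4 at 24 h, and without members with overlapping exons 1 and 1. The series table gave 1 in Sham, and 6 at 24 h with its FPKM minimum divided by 1.91. That is the median factor, over members and libraries, by which FPKM was higher in the separate tables. In AngII 24 h anti-EZH2 the tables lay closer (Wdr83os 3.42 and 2.96, Atcayos 3.65 and 3.20), so this minimum is lenient there. The count at 24 h was 5 with a pseudocount of 0.5 and values of 0 allowed, 5 with ratios divided by the median ratio, and 1 with a ratio above 4.

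The counts past the IgG criterion (4, 4 and 6) became 7, 9 and 12 without an FPKM minimum, 1, 1 and 3 in the series table, where the minimum of 1 FPKM is the stricter for this factor (1 in Sham, 3 at 4 h and 5 at 24 h with the minimum divided by it), 0, 1 and 0 where the intervals had to lie apart, and 1, 1 and 0 without overlapping exons. In Sham the count was 2 with ratios divided by the median ratio and 0 with a ratio above 4, and at 24 h it was 10 with the pseudocount.

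Members over 2-fold from Sham (3 at 4 h and 1 at 24 h) numbered 5 and 3 with a pseudocount of 0.1, 1 at 4 h with a pseudocount of 1, 1 at 4 h without centring, 1 and 0 in the series table, and 2 at 24 h with a mean FPKM of at least 1. Median ratios of the os transcripts, below 1 over all members above 0 (0.911, 0.987 and 0.798), were 1.18, 1.02 and 1.07 with an FPKM above 1 in both libraries and 1.04, 1.15 and 1.24 in the series table, where those of the sense genes were 1.03 at 4 h and 1.32 at 24 h (0.857 and 0.834 before). Members above their sense gene numbered 4 rather than 16 when each library had to show it, and 51 rather than 78 members were above 0 in at least 3 libraries. Of 97 ratios of single members above 0 in both tables, 15 lay on the other side of 1 in the series table, each from below to above. Over 1.5 times apart were 34, namely 5 of 29 in Sham, 5 of 36 at 4 h and 24 of 32 at 24 h. Of the ratios past a criterion 8 moved by over 1.5 times, with the same side of 1: in Sham Cep112os2 (9.85) and Sp3os (0.382), at 4 h Ccpg1os (0.311), and at 24 h Cebpzos (0.183), Plet1os (0.247), Rab10os (0.284), Toporsos (0.266) and Kcnd3os (0.498). limma called 0 members under each alternative, and 0 to 0 with a pair of libraries left out. The causes were not tested. At this depth most values rest on a few fragments, and 1 library for each group and antibody gives no spread between animals.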
